A study of Mus musculus with 4 samples.

Results

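The Hox genes of the 4 mouse clusters and the Meis and Pbx genes, which encode their DNA-binding partners, were followed across 4 Affymetrix Mouse Genome 430A 2.0 arrays. Members were chosen by a rule on the spelling of their symbol in the platform annotation. Of the 12393 genes with a probe set of their own, 37 were members, with 46 of the 22626 probe sets that are not Affymetrix controls. The mouse gene table names 46 genes that fit the rule. The remaining 9 were not analysed here, and 3 probe sets that carry the symbols of a pair of Hox genes were left out.

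RNA came from CH10T1/2 cells, a mouse embryonic mesenchymal line, in which the PTH and PTHrP receptor PTHR1 had been stably introduced. The groups, with 1 array each, were the R150C line given 1e-07 M PTHrP for 1 h, the R150C line given carrier, the WT line given PTHrP in the same way and the WT line in control medium. R150C is the receptor variant found in enchondromas, benign tumours of cartilage, and WT is the normal receptor. Serum was withdrawn overnight from all cells beforehand. Only the series text, and not the label of the WT control array, says that it received carrier. Each receptor is represented by 1 transfected line, so receptor and line cannot be told apart. Nothing in the labels gives a second culture of any group, and any p-value below measures only the spread between these 4 arrays.

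Hox genes encode homeodomain transcription factors that give cells their position along the body axis and the limb. Within a cluster the genes with low numbers act towards the head and those with high numbers towards the tail and the limb tip, and cultured fibroblasts are known to keep much of the Hox pattern of the site they came from. Pbx and Meis proteins belong to the TALE class of homeodomain proteins. They bind DNA together with Hox proteins, and Meis proteins hold Pbx in the nucleus.

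Meis2 and Hoxa5, the 2 members called between the lines in the main fit, are shown here by their promoter sequence. So are 2 other HoxA genes whose promoter windows hold a motif, Hoxa2 and Hoxa3. The Hoxa5 call was lost in each fit without the filter on low signals, as described below. Each window runs from 250 bases before to 50 bases after the annotated start (RefSeq, build GRCm38.p6, written 5′ to 3′ on the gene's strand). Capitals mark a match to 1 of 4 motifs searched on both strands.
Meis2, chr2:116064570-116064869, minus strand: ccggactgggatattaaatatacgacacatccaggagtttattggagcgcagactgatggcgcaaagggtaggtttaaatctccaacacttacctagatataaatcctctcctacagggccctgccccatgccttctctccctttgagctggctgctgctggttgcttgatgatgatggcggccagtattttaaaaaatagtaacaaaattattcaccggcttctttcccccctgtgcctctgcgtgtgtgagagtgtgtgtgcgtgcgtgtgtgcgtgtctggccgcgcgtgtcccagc
Hoxa5, chr6:52204538-52204837, minus strand: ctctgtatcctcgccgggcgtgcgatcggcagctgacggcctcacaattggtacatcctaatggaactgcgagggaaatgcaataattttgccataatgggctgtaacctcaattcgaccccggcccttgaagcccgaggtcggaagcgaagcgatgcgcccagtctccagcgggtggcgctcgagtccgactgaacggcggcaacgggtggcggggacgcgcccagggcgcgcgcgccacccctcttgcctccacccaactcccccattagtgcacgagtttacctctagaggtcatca
Hoxa2, chr6:52164782-52165081, minus strand: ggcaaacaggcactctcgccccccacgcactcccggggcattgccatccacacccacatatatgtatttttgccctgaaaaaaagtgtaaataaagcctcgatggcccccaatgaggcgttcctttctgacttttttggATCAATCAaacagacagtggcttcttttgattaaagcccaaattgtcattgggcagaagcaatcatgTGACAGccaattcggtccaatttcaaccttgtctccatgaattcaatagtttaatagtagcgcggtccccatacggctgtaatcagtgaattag
Hoxa3, chr6:52213018-52213317, minus strand: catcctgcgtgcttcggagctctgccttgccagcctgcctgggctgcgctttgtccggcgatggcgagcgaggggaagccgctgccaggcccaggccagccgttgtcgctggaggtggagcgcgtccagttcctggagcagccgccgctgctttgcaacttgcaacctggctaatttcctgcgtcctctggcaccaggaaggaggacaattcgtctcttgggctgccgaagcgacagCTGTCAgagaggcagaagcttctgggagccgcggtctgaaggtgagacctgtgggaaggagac

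The motifs were TGACAG, read by Meis proteins, TGATNNAT, read by Hox and Pbx proteins together, the cAMP response element TGACGTCA and the Gli site TGGGTGGTC. The first and the third both begin with TGAC, but the third had no match in these windows, so no overlap of these motifs could occur. The Hoxa2 window held TGATNNAT, as ATCAATCA on the opposite strand, and TGACAG, and the Hoxa3 window held TGACAG on the opposite strand, as CTGTCA. None of the 4 motifs was found in the Meis2 and Hoxa5 windows. Among 25 windows of the 23 members with a promoter in the table, 2 held TGACAG and 3 held TGATNNAT, against 19.2% and 8.8% of all 32851 windows of that length. The cAMP response element and the Gli site were in 0 of the 25, and in 1.8% and 0.3% of all windows. These matches describe letters in a window and say nothing of binding.

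The deposited value of a probe set is a fluorescence intensity, called signal below, scaled so that the trimmed mean was nearly equal in all arrays (150.1). For differences 16 was added to each signal, log2 was taken and the median of the array was removed. The added 16 shrinks differences of dim genes. This left the kept genes, defined in the next paragraph, with median differences of 0.08 between the lines in carrier or control medium, -0.07 under PTHrP, 0.05 for PTHrP in the R150C line and 0.22 for PTHrP in the WT line, against which single values should be read. Pearson correlations between arrays across probe sets ran from 0.976 to 0.992. The 3′ to 5′ ratio of the Gapdh control probe sets, a sign of RNA integrity, was 1.21 and 0.991 in the R150C line (PTHrP, carrier) and 1.17 and 0.845 in the WT line (PTHrP, control). It was higher in both PTHrP arrays, and its part in the values below was not tested. Of 12 fibroblast markers 11 were kept and 0 were called between the lines, with a median signal of 2169 and 2233 in the R150C line (carrier, PTHrP) and 2461 and 2630 in the WT line (control, PTHrP). Across the 30 markers of epithelium, endothelium, leukocytes, neurons and skeletal muscle 4 were kept (Krt8, Csf1r, Cd14 and Stmn2) and 0 were called. Their median signal was 24.6 and 21.9 in the R150C line and 18.5 and 16.6 in the WT line. Of the markers of cartilage, bone and fat, 6, 4 and 5 had a probe set, 2, 1 and 2 were kept and 0 were called. The fat markers had median differences of 0.20 and -0.34. Among them Cebpa, not kept, read 16.4 and 22.5 in the R150C line and 58.9 and 80.6 in the WT line (-1.12 and -1.35). Cebpa was called lower in the unfiltered fit with a variance trend described below (limma, largest adjusted p 0.0417). In the unfiltered fit without the trend it was not called (0.0625).

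Each gene is represented by its brightest probe set, and the 6197 genes at or above the median level over genes were kept, a level that lies at a signal of 62.6. With 1 array per group the single contrasts are values with no test. The difference between the lines over both media was tested with limma's additive model of line and treatment, which leaves 1 residual degree of freedom, the interaction of line and treatment. A gene was called higher or lower where its Benjamini-Hochberg adjusted p was under 0.05 in each of 4 scalings of the arrays. The text gives the largest of these 4 adjusted p. Only 5 of the 37 members were kept (Hoxa5, Hoxa9, Meis2, Pbx2 and Pbx3), and in 28 the signal stayed under the filter level in every array. The table has no detection calls, so it cannot be said of these dim members which are expressed.

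Among the 5 kept members, the only ones in this fit, Meis2 and Hoxa5 were called lower in the R150C line and none was called higher. These were 2 of the 5 kept members, where 2.94% of all kept genes were called lower and 5.2% higher, and with 5 members, kept in part through their WT level, nothing is read from that share. Meis2, a cofactor that marks the proximal part of the limb bud together with Meis1, read 94.0 and 103.6 in the R150C line (carrier, PTHrP) and 238.9 and 225.4 in the WT line (control, PTHrP). Both R150C arrays lay below both WT arrays, by -1.12 in carrier or control medium and -1.04 under PTHrP (log2). Fitted over both media the difference was -1.08 (SE 0.19, limma, largest adjusted p 0.0021).

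Hoxa5, which acts in the neck and upper trunk and in the lung, read 52.2 and 58.3 in the R150C line and 133.9 and 102.6 in the WT line, in the same order of media. The lines did not overlap here either, and as both R150C values lie under the filter level of 62.6, Hoxa5 was kept through its level in the WT line. The difference was -1.05 in carrier or control medium and -0.70 under PTHrP, and -0.87 over both (SE 0.19, limma, largest adjusted p 0.012). Under the additive fit limma gave all kept genes 1 common standard error with the median centring, which treats Hoxa5 as no noisier than brighter genes.

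The Hoxa5 call rests on the filter on low signals, and it was lost in each fit without the filter. Fitted over all 12393 genes without it, no member passed, with a largest adjusted p by limma of 0.077 for Meis2 and 0.151 for Hoxa5, in a fit where 10 genes (0.0807%) were called lower. When the variance was in addition allowed to follow the level, a fit added after the data were seen, 0.637% of all genes were called lower, Meis2 again (limma, largest adjusted p 0.01) and Meis1 (0.035), while Hoxa5 was not (0.092). With each of the probe sets fitted on its own in that way, Meis2 was called as well (limma, largest adjusted p 0.0274).

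Meis1, the close relative of Meis2 and a known partner of Hoxa9 in leukaemia, read 7.2 and 31.7 in the R150C line and 63.8 and 87.3 in the WT line. Its lines did not overlap, and the differences were -1.69 and -1.14, or -1.42 over both media. Meis1 was not kept, and in the unfiltered fit limma's largest adjusted p was 0.077. On the scale with 16 added, members at least 2-fold lower in both media were Meis1 and Meis2, 2 of 37, against 0.274% of all genes. In deposited signal Hoxa2, Hoxa7, Hoxb3 and Hoxb6 were at least 2-fold lower in both media as well, and Hoxc5 was at least 2-fold higher. Meis3 read 38.9 and 27.9 in the R150C line and 38.9 and 29.7 in the WT line, with differences of 0.09 and -0.08, the first of which was 0.00 with the deposited values left uncentred.

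**Figure D1:**
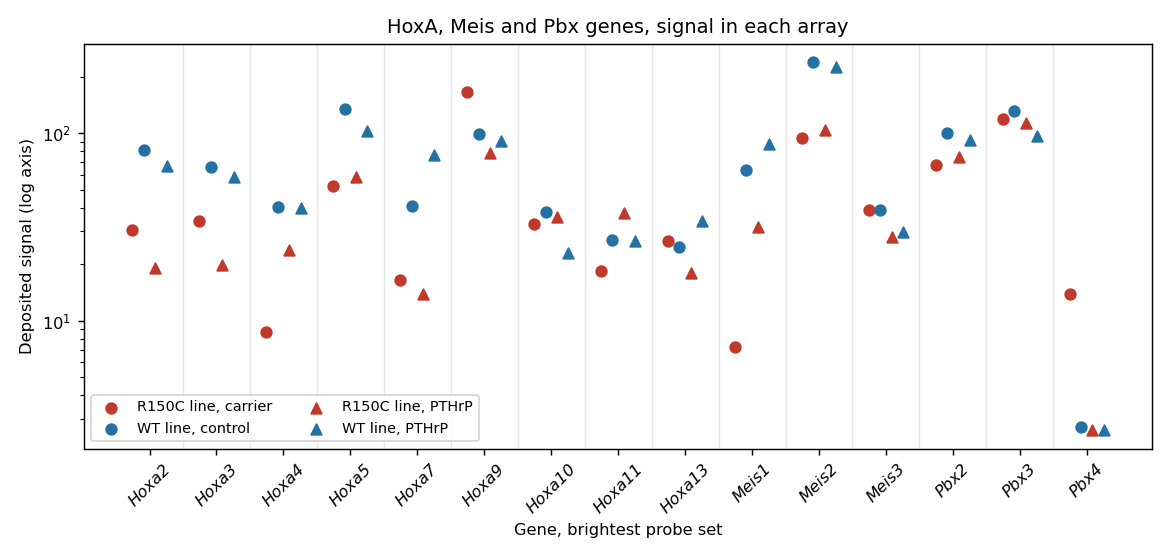
Deposited signal (log axis) of the brightest probe set of each HoxA, Meis and Pbx gene in the 4 arrays, red for the R150C line and blue for the WT line, circles for carrier or control medium and triangles for PTHrP. In Hoxa2 to Hoxa7, Meis1, Meis2 and Pbx2 both red symbols lie under both blue ones, and in Hoxa9 to Hoxa13, Meis3, Pbx3 and Pbx4 the colours mix.

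The HoxA cluster divided along its length. All 5 measured genes from Hoxa2 to Hoxa7 read lower in the R150C line in both media under each of the 4 scalings, while none of the 4 from Hoxa9 to Hoxa13 did. This split was seen in the values and was not tested. The first 5 had a median difference of -0.97 in carrier or control medium and -1.09 under PTHrP, and the other 4 had 0.05 in each. Across all genes 26.3% read lower in both media.

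Hoxa2, which patterns the second pharyngeal arch and the hindbrain, read 30.6 and 19.0 in the R150C line and 81.1 and 67.2 in the WT line (differences -0.97 and -1.28). Hoxa3, needed for thymus and parathyroid, read 34.1 and 19.7 in the R150C line and 65.8 and 58.7 in the WT line (-0.62 and -1.09). In both genes the WT arrays lay above the R150C arrays, and the distance was wider under PTHrP. Hoxa4, a neck gene, read 8.7 and 23.9 in the R150C line and 40.3 and 40.0 in the WT line (-1.10 and -0.51), so that its 2 R150C arrays differed from each other by more than its WT arrays did. Hoxa7, which acts in the chest region, read 16.4 and 13.8 in the R150C line and 40.7 and 76.3 in the WT line (-0.72 and -1.66), with the spread on the WT side. These 4 genes are described outside the rule for named genes, since their place in the cluster was noticed after their values were seen. None of them was kept, and without the filter limma's largest adjusted p was 0.077 for Hoxa2, 0.154 for Hoxa3, 0.202 for Hoxa4 and 0.151 for Hoxa7.

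The 2 second probe sets among these genes did not follow. That of Hoxa3 read 19.3 and 38.3 in the R150C line and 28.7 and 35.9 in the WT line, which overlap, and that of Hoxa4 read 9.1 and 4.9 in the R150C line and 1.1 and 10.2 in the WT line. Their names end in _s_at and _x_at, by which Affymetrix marks probe sets with probes that also match other transcripts. Hoxa2, Hoxa5 and Hoxa7 have a single probe set, as do Meis1 and Meis2.

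Hoxa9, the next gene in the cluster and one known for its role in blood cells, read 165.5 and 78.2 in the R150C line and 99.6 and 90.5 in the WT line. The R150C carrier array lay above and the R150C PTHrP array below both WT arrays. The difference of 0.74 in carrier or control medium and -0.20 under PTHrP averaged 0.27 (SE 0.19, limma, largest adjusted p 0.531). Its second probe set stayed between 2.2 and 9.1. Hoxa10, Hoxa11 and Hoxa13, which act in the limb and the reproductive tract, read between 18.0 and 37.8 in all arrays, and their lines overlapped.

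**Figure D2:**
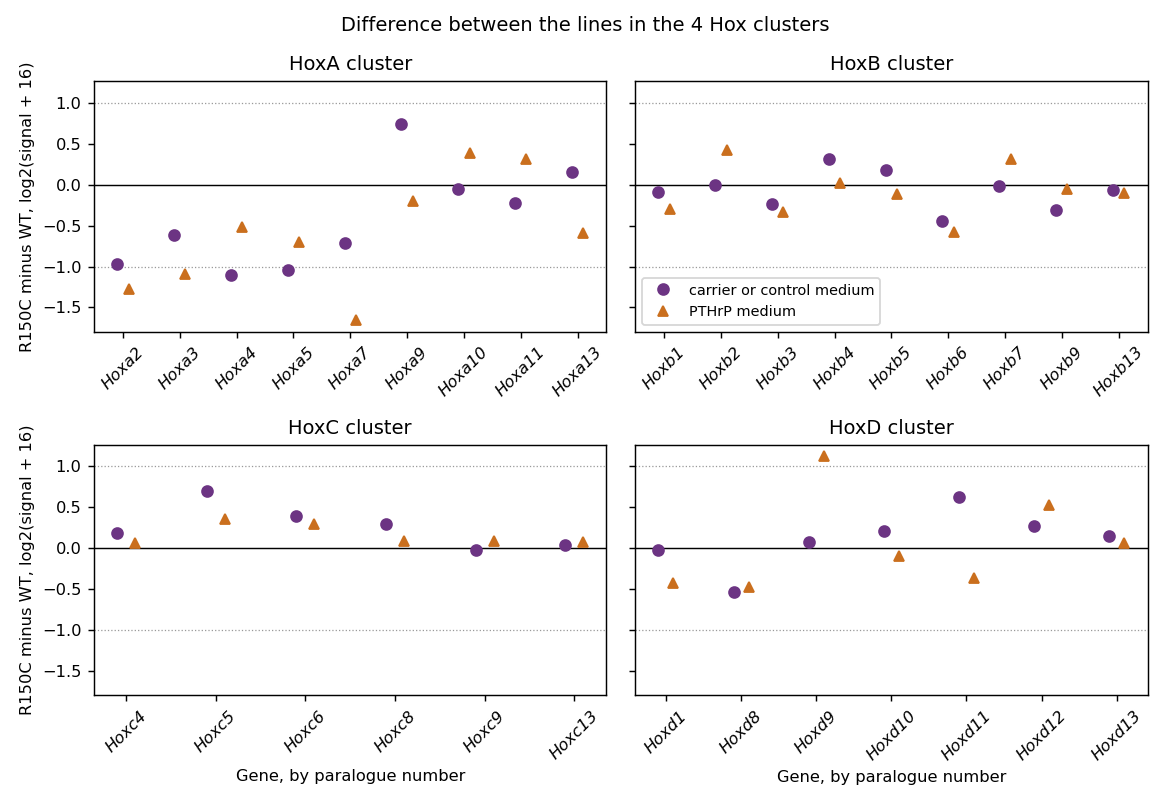
Difference between the lines (R150C minus WT, log2(signal + 16), median-centred) for each Hox gene by its paralogue number in the 4 clusters, purple circles for carrier or control medium and orange triangles for PTHrP. Dotted lines mark 2-fold. Hoxa2 to Hoxa7 lie between -0.51 and -1.66, and the 1 symbol above the upper dotted line is Hoxd9 under PTHrP, at 1.12.

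In the other clusters the signals were dim, up to 43.6 in HoxB, 55.3 in HoxC and 26.6 in HoxD by brightest probe sets, and no member was kept. HoxB had a median difference of -0.07 and -0.10 over 9 genes, of which 5 read lower in both media and 1 higher. Across all genes 26.3% read lower in both media and 31.2% higher. Hoxb6 stood farthest down, with 6.7 and 2.8 in the R150C line and 16.8 and 11.7 in the WT line, all values at which 16 units of pseudocount weigh heavily. HoxC, whose genes act in the trunk and hindlimb, had 0.24 and 0.08 over 6 genes. Of these 5 read higher in both media and 0 lower, beside the same shares of all genes. The count of higher genes was 4 with each of the other scalings. Among them Hoxc4 read between 1.5 and 2.9 and Hoxc13 between 2.6 and 4.0. In deposited signal Hoxc13 read 3.1 in the R150C line with carrier and 3.7 in the WT line in control medium. Nothing is read from these counts. Hoxc6, a gene of the chest region, read 54.9 and 55.3 in the R150C line and 41.7 and 41.0 in the WT line, without overlap. A second probe set of Hoxc6, with a name ending in _x_at, went the other way, with 44.0 and 40.5 in the R150C line and 49.6 and 54.5 in the WT line. Hoxc5 read 19.5 and 11.8 in the R150C line and 7.2 and 5.4 in the WT line.

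HoxD, whose genes with high numbers act in the limb tip and the tail end, had medians of 0.15 and -0.09 over 7 genes. On the scale with 16 added, Hoxd9 alone among the members exceeded 2-fold upwards between the lines, by 1.12 under PTHrP. There it read 26.6 in the R150C line and 3.2 in the WT line. In carrier or control medium it read 15.6 and 15.9, and its difference was 0.08 there (-0.01 without centring). Across all genes 1.92% were at least 2-fold higher under PTHrP on that scale. In deposited signal other dim members exceeded 2-fold upwards too, among them Hoxc5 in both media and Hoxd12 under PTHrP. Hoxd8 read 4.6 and 10.1 in the R150C line and 15.8 and 19.6 in the WT line, and Hoxd10, Hoxd12 and Hoxd13 stayed at 10.2 or under in every array.

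Pbx genes showed no called difference. Pbx2, whose loss alone has little effect in mice, read 67.9 and 75 in the R150C line and 100.4 and 91.6 in the WT line. The lines did not overlap, by -0.38 and -0.27, yet the fitted -0.33 missed the threshold (SE 0.19, limma, largest adjusted p 0.313). The 2 other probe sets of Pbx2 differed by -0.78 and -0.17 in one and by -0.71 and -0.01 in the other. In the last the lines overlapped, and its deposited signal under PTHrP was 21.5 in the R150C line and 21.0 in the WT line. Pbx3 read 118.6 and 113.7 in the R150C line and 132.0 and 96.2 in the WT line, which overlap, and differed by 0.07 (SE 0.19, limma, largest adjusted p 0.978). Pbx4, a testis gene, read between 2.6 and 13.8.

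Over all 37 members the median difference between the lines was -0.02 in carrier or control medium and -0.09 under PTHrP, beside 0.09 and -0.05 for all genes. Over the 5 kept members it was -0.38 and -0.27, beside 0.08 and -0.07 for all kept genes. As Hoxa5 was kept through its level in the WT line, nothing is read from the medians of the kept members. In both media 15 members read lower, a count that was 15 under each scaling, and 9 read higher, a count that was 7 without centring. Across all genes the shares were 26.3% and 31.2% (31.5% and 28.8% without centring). In carrier or control medium 4 members were at least 2-fold lower and 0 at least 2-fold higher, and under PTHrP 5 and 1, where 0.783% and 2.45% of all genes, and then 1.12% and 1.92%, went that far. The R150C arrays lay wholly below the WT arrays in 13 members and wholly above in 6, against 23.9% and 21.9% of all genes. The low group was made up of Hoxa2 to Hoxa7, Hoxb1, Hoxb3, Hoxb6, Hoxd1, Hoxd8, Meis1, Meis2 and Pbx2, most of them dim.

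**Figure D3:**
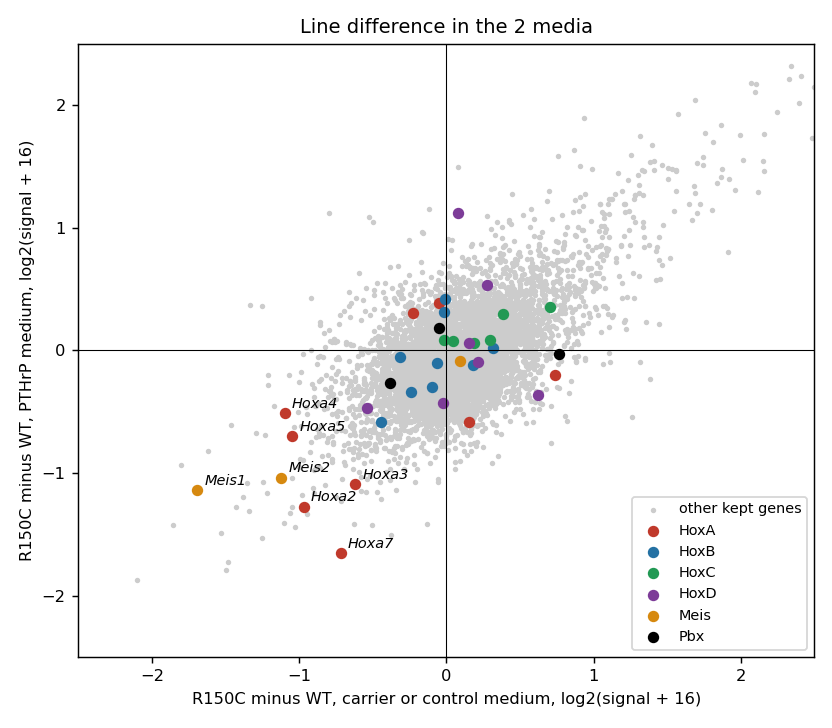
Difference between the lines (R150C minus WT, log2(signal + 16), median-centred) in carrier or control medium on the x axis and under PTHrP on the y axis, coloured for the 37 members and grey for the other kept genes. The axes share no array. The 7 members farthest down on both axes together are named, and they are Meis1, Meis2 and the 5 measured genes from Hoxa2 to Hoxa7.

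PTHrP for 1 h had no called effect on a member. In limma's additive fit 0 of the 5 kept members and 0 of 6197 kept genes (0%) passed in all 4 scalings together. Taken singly, 25 kept genes passed with the median centring, 1 without centring and 0 with each of the 2 other scalings, none of them a member. At an unadjusted p under 0.05 stood 1 member with the median centring and with 2 of the 3 other scalings, and 0 after quantile normalization, and the smallest adjusted p of a member by limma was 0.478. The median difference over all 37 members was 0.00 in the R150C line and 0.07 in the WT line, beside 0.02 and 0.17 for all genes. The second of these member medians turned to -0.09 without centring. The 2 responses had opposite signs in 17 of 37 members, 45.9%, beside 46.0% of all genes.

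In the R150C line Meis1 was the 1 member at least 2-fold apart on the scale with 16 added. It differed by 1.09, with 31.7 after PTHrP and 7.2 in carrier (0.468% of all genes went 2-fold upwards and 0.621% downwards). In deposited signal other members passed 2-fold too, such as Hoxa4 upwards and Hoxa9 downwards. In the WT line Meis1 read 87.3 after PTHrP and 63.8 in control medium, a difference of 0.54. Hoxa9 had the largest difference downwards in the R150C line, -0.89, with 78.2 after PTHrP and 165.5 in carrier, and 90.5 against 99.6 in the WT line (0.05, or -0.12 without centring). Hoxa7 had the largest difference upwards in the WT line, 0.87, with 76.3 after PTHrP and 40.7 in control medium, and 13.8 against 16.4 in the R150C line (-0.07). With 16 added, no member was at least 2-fold apart in the WT line, where 0.799% of all genes were higher and 0.436% lower. In deposited signal some dim members were, such as Hoxd11 upwards and Hoxd9 downwards. Meis2 differed by 0.17 in the R150C line and 0.09 in the WT line, where it was -0.08 without centring.

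**Figure D4:**
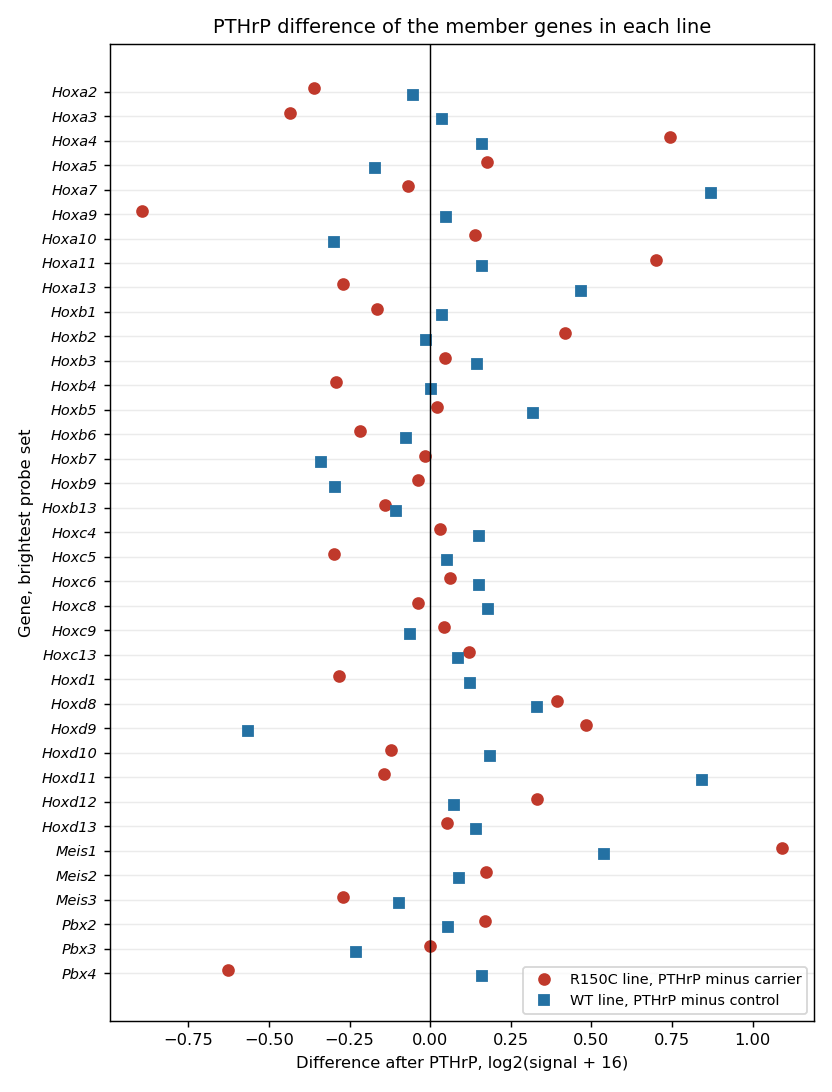
Difference after 1 h of PTHrP (log2(signal + 16), median-centred) of the 37 members, red circles for the R150C line and blue squares for the WT line. Meis1 reaches 1.09 in the R150C line and Hoxa9 reaches -0.89 there, and neither stands as far out in the WT line.

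Of 44 cofactors and regulators of Hox genes 39 had a probe set and 21 were kept, with 2 called higher and 1 lower in the R150C line, where 5.2% and 2.94% of all kept genes were called. These 3 calls were lost without the filter, and all 3 were made without it when the variance followed the level. Tgif1, a TALE repressor of the same homeodomain class, read 511.4 and 371.5 in the R150C line and 174.6 and 138.5 in the WT line, and was higher by 1.56 and 1.30 (limma, largest adjusted p 0.00071). Phc2, a Polycomb subunit, was higher by 0.86 and 0.79 (limma, largest adjusted p 0.0115), and Gmnn, which encodes geminin, a replication inhibitor that can also bind Hox proteins, was lower, at -0.75 and -0.66 (limma, largest adjusted p 0.0156). Pknox1, a TALE relative that competes with Meis for Pbx, was not kept and read 43.3 and 37.5 in the R150C line and 62.6 and 38.1 in the WT line. Phc2 was the 1 called of 10 kept Polycomb genes, and 0 of 4 kept trithorax genes and 0 of 4 kept genes of retinoic acid signalling were called, among the last Rarg at -0.19 and -0.43. The 3 Cdx genes, activators of Hox clusters in the embryo, were not kept and read between 1.2 and 23.5.

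Among 57 other transcription factors of limb and axial position 49 had a probe set and 12 were kept, and 4 were higher and 1 lower in the R150C line, beside the same 5.2% and 2.94% of kept genes. None of these 5 was called by limma without the filter (largest adjusted p from 0.0524 for Dlx2 to 0.228 for Twist2), and 2 of them, Dlx2 and Foxc2, were called when the variance also followed the level. Dlx2, a homeobox gene of the jaw and forebrain, read 111.3 and 200.5 in the R150C line and 38.6 and 67.3 in the WT line (1.31 and 1.35, limma, largest adjusted p 0.00077). Foxc2, a forkhead gene of the mesoderm, read 645.2 and 845.7 in the R150C line and 278.8 and 263.8 in the WT line (1.25 and 1.60, limma, largest adjusted p 0.0011). Its relative Foxc1 went the opposite way, with 153.1 and 187.9 in the R150C line and 330.5 and 270.4 in the WT line (-0.95 and -0.52, limma, largest adjusted p 0.0241). The other called genes were Twist1 at 0.74 and 0.49 and Twist2 at 0.79 and 0.46, mesenchymal factors that were both higher (limma, largest adjusted p 0.0409 and 0.043). The list's median over its 49 measured genes was 0.07 and 0.02.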

How the data were processed

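Per the submitters' processing notes the deposited intensity of each probe set came from Affymetrix Expression Console; the sources used here give neither its version nor the algorithm or a genome build. The intensities are linear, and their equal trimmed means show a global scaling. Each of the 4 groups has 1 array.

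From these values log2(signal + 16) was computed, and each array's median over probe sets that are not controls was subtracted. The brightest of the probe sets with 1 symbol stood for each of 12393 genes, and the 6197 at or above the median level were tested with limma 3.58.1 (R 4.3.3; line and treatment, additive; Benjamini-Hochberg). Entrez identifiers matched the mouse gene table for 20364 of 20380 probe sets with 1 symbol. A call needed an adjusted p under 0.05 under 4 scalings: this centring, no centring, quantile normalization and centring on genes that passed the filter. The fit was first tested on simulated data. In full are described members kept by the filter and those at least 2-fold apart in both media on the scale with 16 added. The alternatives were other scalings, pseudocounts of 1 and 64, other filters, the mean of all probe sets, single probe sets and a variance trend. Members, lists and tests were chosen with earlier results of these data known. No array of another series was in the table.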

Additional observations from a re-analysis of the deposited data

Results flagged for a closer look

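In 2 of the 6 members described in full the PTHrP difference had opposite signs in the 2 lines, beside 46.0% of all genes. Nothing is read from that count. With 1 array per group opposite signs are a weak criterion, and the difference between the lines' responses was not tested. Hoxa9 stood at -0.89 in the R150C line and 0.05 in the WT line, and the opposite signs were seen with the median centring alone: the WT value was -0.12 without centring and below 0 with the 2 other scalings too. Its deposited signal was lower after PTHrP in both lines. Hoxa5 stood at 0.18 in the R150C line and -0.17 in the WT line, with opposite signs in all 4 scalings. These 2 values, with the median centring, lie within the spread of a difference between 2 arrays (SD 0.25, log2, from the interaction of line and treatment across kept genes). In each of the other scalings the WT value of Hoxa5 lay beyond that SD, farthest without centring (-0.34).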

How the results depend on the processing

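The count of 2 members called between the lines was 0 without the filter and 1 with each probe set on its own, no filter and a variance trend, and 2 under the 8 other alternatives that gave a value, of which the unfiltered fit with a variance trend called Meis1 (0.0352) and not Hoxa5 (0.0918). Hoxa5 and Meis2 kept their direction throughout, from -0.59 to -1.03 and from -0.84 to -1.18. With each probe set on its own, limma's largest adjusted p was 0.152 for Hoxa5, 0.0274 for Meis2 and 0.0845 for Meis1. No alternative called a member for PTHrP. The median difference of the kept members in carrier or control medium, -0.38, was -0.0187 over all 37 members and -0.016 over single probe sets, and -1.05 over the 3 members kept with the mean of all probe sets, where the PTHrP value was -0.70 beside -0.27. No member reached the filter at the 75th percentile (signal 206.8). Counts over all genes moved by more than 1.5 times in some settings, with 54 higher and 10 lower without the filter, 215 and 79 with a trend in addition, 204 and 49 probe sets on their own, 152 and 42 at the 75th percentile and 462 and 319 without centring, against 322 and 182. No paired analysis was possible because each group has 1 array. There are no detection calls, and 28 of the 37 members stayed under a signal of 62.6 in every array, and precision is limited by having 4 arrays.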
